A study of Mus musculus with 24 samples.

Results

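Ribosome biogenesis genes encode the factors that make, modify, cut and assemble the parts of a ribosome before it reaches the cytoplasm. The set comprised 44 genes, chosen by symbol from a list of nucleolar and pre-ribosomal factors, out of 54957 gene rows in the count table. It was chosen with earlier results of these data known. All 44 had a row and all 44 passed the filter on low counts, as did 14591 genes in all over the 24 libraries. The libraries were bulk RNA-seq of T cells taken by sorting out of tumours of B16F10-OVA, a mouse melanoma line carrying ovalbumin as a model antigen. Tumour-bearing mice had received 200 µg of antibody and tumours were taken 1 day later. Fewer than 400 cells went into each library, made with Smart-seq2, which copies polyadenylated RNA along its whole length. The sources used here do not give mouse strain, sex or age.

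There were 6 groups of 4 libraries. CD8+ T cells came from mice given isotype control antibody, anti-PD-1, which binds an inhibitory receptor of activated T cells, or anti-JAML, which binds a junctional adhesion molecule-like receptor. CD4+FOXP3+ regulatory T (Treg) cells came from the same 3 treatments. Whether each of the 4 libraries of a group stands for its own mouse is not stated in the labels, so the p-values rest on a spread between libraries that may be technical.

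Ribosome assembly starts in the nucleolus, where RNA polymerase I transcribes a long precursor of ribosomal RNA. Small nucleolar ribonucleoproteins (snoRNPs) modify that precursor, the small subunit (SSU) processome folds and cuts the part that becomes the 40S subunit, and a separate set of factors builds the 60S subunit. T cells that leave rest enlarge their nucleoli and raise this machinery, and the transcription factor Myc is known to bind the E-box CACGTG near many of its genes.

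Because CACGTG is the letter string by which Myc and its partner Max are usually recognised, it was searched in the promoters of the members, from 250 bases before to 50 bases after each RefSeq start site. The string reads the same on both strands, so a match counts for both. Promoters were found for 38 of the 44 members, and 8 of the 38 (21.1%) held the string. It was present in 8.09% of the 27025 genes in the promoter table and in 9.18% of its 16522 protein-coding genes. A match describes letters only. The 30-base windows around the string in 7 members follow, 5′ to 3′ on the gene's own strand, with the string in capitals.
Wdr43: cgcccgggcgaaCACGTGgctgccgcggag
Utp18: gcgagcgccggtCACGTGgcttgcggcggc
Tsr1: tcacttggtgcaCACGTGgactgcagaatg
Ltv1: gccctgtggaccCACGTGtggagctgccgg
Pes1: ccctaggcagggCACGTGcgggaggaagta
Nop2: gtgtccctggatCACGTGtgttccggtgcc
Mettl1: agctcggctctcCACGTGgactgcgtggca
In the RefSeq annotation of GRCm38.p6 these windows lie at chr17:71616220-71616249 on the plus strand for Wdr43, chr11:93885769-93885798 on the minus strand for Utp18 and chr11:74898092-74898121 on the plus strand for Tsr1. Those of Ltv1 and Pes1 lie at chr10:13193092-13193121 on the minus strand and chr11:3963965-3963994 on the plus strand. Those of Nop2 and Mettl1 lie at chr6:125131811-125131840 and chr10:127041950-127041979, both on the plus strand. With the start site counted as the first base, the string starts at base 18 in Wdr43 and at base 31 in Mettl1. In Utp18 and Nop2 it starts 20 and 60 bases before the start site. The eighth member with the string was Utp20.

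Library totals ran from 11170918 to 22556460 counts, and 12643 to 15356 genes were detected per library. The sorted populations carried their own markers. The summed CPM (counts scaled to library size, with the TMM method between libraries) of Cd8a and Cd8b1 were 1773 to 3003 in CD8 libraries and 12.3 to 48.3 in Treg libraries, while Cd4, Foxp3, Il2ra and Ikzf2 summed to 64.8 to 378 and 1368 to 2286. Macrophage and monocyte markers (12 of 12 had counts in both populations) summed to 903 to 2063 CPM in CD8 libraries and 36.8 to 1403 CPM in Treg libraries. Ly6c2, which CD8 cells also express, made up most of that sum in CD8 cells, and without it the list reached 456 CPM in CD8 and 1191 CPM in Treg libraries. B and plasma cell markers summed to 506 to 1138 CPM in Treg and 167 to 688 CPM in CD8 libraries, with Ms4a1 at 0 counts in every library. NK cell markers summed to 1151 to 4073 CPM in Treg and 2096 to 6951 CPM in CD8 libraries, with Ncr1 at 0 counts in every CD8 library. In any library, melanoma markers summed to at most 91.9 CPM and dendritic cell markers to at most 226.1 CPM. Markers of stroma and endothelium reached at most 93.05 CPM and those of neutrophils 3.40 CPM. Erythroid markers (5 of 5 had counts in both populations) summed to 1372 CPM in Treg anti-JAML 4, 693 CPM in Treg anti-PD-1 1, 497 and 404 CPM in CD8 anti-JAML 2 and 4 and 275.5 CPM in CD8 isotype 3, and to 8.68 CPM or less in the other 19 libraries. The part of these cells in the results was not tested, and values without the 3 libraries that, Ly6c2 aside, carried the most macrophage transcripts of their population (Treg anti-PD-1 1 and 4 and CD8 anti-JAML 2) are given beside the results. CD8 anti-JAML 2 and 4 and Treg isotype 3 stood apart from their groups in an earlier analysis of these data, and medians without them are given too. Over 14591 genes, the median Spearman correlation of a library with the other 3 of its group was lowest in Treg isotype 3 (0.859) and CD8 anti-JAML 4 (0.863), with 0.872 to 0.944 in the other 22, CD8 anti-JAML 2 at 0.892 among them.

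On the TPM scale, which corrects for transcript length, Npm1, which encodes the nucleolar chaperone nucleophosmin, led at 1717 ± 692 (SD, n = 24). Nhp2, a core protein of the box H/ACA snoRNPs that guide pseudouridylation, followed at 590.4 ± 286, ahead of Nop56 at 169.5 ± 80.7. Nop56 is a core protein of the box C/D snoRNPs, which guide 2′-O-methylation. Nop16, a 60S factor, came next at 167.1 ± 74.9. The SD over 24 libraries includes the difference between populations, so it does not show whether Nop56 and Nop16 differed. Their order changed with the population. Nop16 had a mean of 234 and Nop56 of 214.9 in CD8 cells, against 100.2 and 124 in Treg cells. At the low end were Polr1a, the largest subunit of RNA polymerase I, at 2.95 ± 1.65 and Utp20, an SSU processome scaffold, at 2.10 ± 1.68. Npm1, Nhp2, Nop56, Nop16 and Noc4l held the first 5 places in Treg cells and 5 of the first 6 in CD8 cells. Npm1 has processed copies in the genome, so its counts are uncertain. Counts of 0 occurred in 5 members, namely Rrs1, Gar1 and Polr1a in 1 library each and Tsr1 and Rrp12 in 2 libraries each.

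CD8 T cells carried more ribosome biogenesis transcripts than Treg cells. Averaged over the 3 antibodies (12 libraries against 12), the fitted difference was above 0 for 44 of 44 members and for 49.5% of all genes. Of these, 32 rose in CD8 cells and 0 fell at an adjusted p under 0.05 (edgeR quasi-likelihood test, Benjamini-Hochberg over 14591 genes, two-sided). Of all genes tested, 14.2% were called higher and 11.9% lower in CD8 cells. Since the members were chosen with earlier results of these data known, their excess over these shares is a description. The median log2 difference of the members was 1.02, a 2.03-fold higher level, against -0.01 for all genes. The members together took 0.581 to 0.863% of the counts of a CD8 library and 0.242 to 0.510% of those of a Treg library, with no overlap between populations. In summed CPM the populations were separate as well, at 5744 or more in CD8 and 5266 or less in Treg libraries. The separation in summed CPM depended on Npm1, whose counts are uncertain. Without Npm1 the members summed to 3424 CPM in CD8 anti-JAML 4 and 3515 CPM in Treg anti-PD-1 1, so the populations overlapped. In sorted pools of cells, fewer cells expressing a gene and less of its RNA per cell cannot be told apart.

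**Figure D1:**
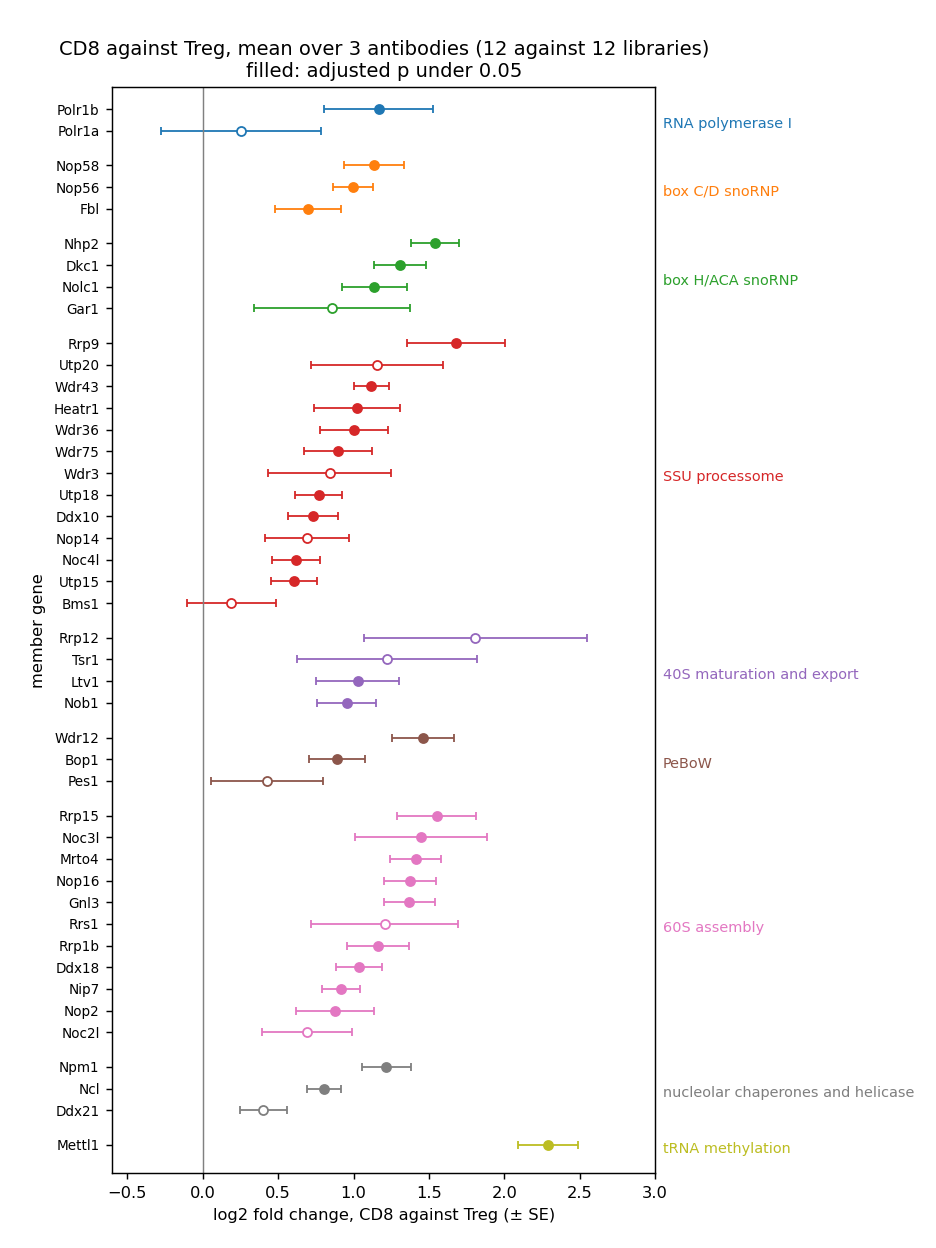
Log2 fold change of each member, CD8 against Treg libraries, averaged over 3 antibodies (12 against 12 libraries), with SE as bars; colours mark roles and filled points passed an adjusted p of 0.05. All 44 points lie right of 0 and 32 are filled, with Mettl1 farthest right among them at 2.29.

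Of the 2 RNA polymerase I subunits 1 passed. Polr1b, the second largest subunit, rose by 1.17 ± 0.36 (SE) on the log2 scale (adjusted p = 0.0181, edgeR). Polr1a had 0.25 ± 0.53 (adjusted p = 0.798), with 6.72 to 25.3 CPM in CD8 and 0 to 28.1 CPM in Treg libraries, so its populations overlapped. Of all genes, 14.2% rose and 11.9% fell. Among 18 further tested genes for RNA polymerase I subunits and factors, 7 rose and 0 fell, with a median of 0.47. Examples were Taf1d, a subunit of the selectivity factor that binds the rDNA promoter (0.63 ± 0.13, adjusted p = 0.00071), and Polr2h, a subunit shared by the nuclear RNA polymerases (0.90 ± 0.21, adjusted p = 0.00229).

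All 3 box C/D proteins rose. Nop56 had a lowest, median and highest level of 176, 379 and 501 CPM in CD8 and 101, 161 and 315 CPM in Treg libraries. CD8 isotype 1 and CD8 anti-JAML 4 lay within the Treg range, and the fitted difference was 1.00 ± 0.13 (adjusted p = 4.97e-06, edgeR). Nop58, its partner in the same particle, rose by 1.13 ± 0.20 and Fbl, the methyltransferase fibrillarin, by 0.70 ± 0.22. Nop56 overlaps Idh3b on the other strand and holds 5 snoRNA genes in its span, and since the sources used here do not state whether counting used strand, reads of such pairs cannot be told apart.

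Of the 4 box H/ACA proteins 3 rose. Nhp2 had 207, 461 and 567 CPM as its lowest, median and highest value in CD8 libraries and 96.8, 147 and 308 CPM in Treg libraries. A single CD8 library, anti-JAML 2, fell inside the Treg range. The difference of 1.54 ± 0.16 (2.91-fold, adjusted p = 1.58e-07, edgeR) was among the 3 with the smallest p. Dkc1, the pseudouridine synthase dyskerin, rose by 1.31 ± 0.17 and Nolc1, a snoRNP chaperone, by 1.14 ± 0.21. Gar1, at 5.66 to 30.1 CPM in CD8 and 0 to 32.8 CPM in Treg libraries, had 0.86 ± 0.52 (adjusted p = 0.24).

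The SSU processome gave 9 called members of 13, with a median of 0.84. Wdr43, a WD-repeat subunit of the processome, had 181, 209 and 321 CPM as its lowest, median and highest value in CD8 and 54.1, 98.7 and 195 CPM in Treg libraries. Its difference was 1.12 ± 0.12 (2.17-fold, adjusted p = 1.48e-07, edgeR), and the overlap came from 1 library, Treg anti-PD-1 3. Rrp9, which binds the U3 snoRNA, had the largest difference of the class among called members, 1.68 ± 0.33 (3.20-fold). Noc4l, the member of this class with the highest TPM, rose by 0.62 ± 0.16, and Utp15 by 0.60 ± 0.15. The 4 that did not pass were Wdr3, Utp20, Nop14 and Bms1, between 0.19 and 1.16.

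Of the 40S maturation and export factors, 2 of 4 rose. Ltv1, an assembly factor of the pre-40S particle, had 39.5, 122 and 171 CPM as its lowest, median and highest value in CD8 and 5.76, 63.9 and 108 CPM in Treg libraries. It rose by 1.03 ± 0.28 (adjusted p = 0.00741, edgeR), and Nob1, the nuclease that makes the final cut of 18S RNA, by 0.96 ± 0.20. Rrp12, an export factor, had the largest value of the class, 1.81, but with an SE of 0.74 (adjusted p = 0.0764), and Tsr1 had 1.22 ± 0.60 (adjusted p = 0.141).

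For the 60S subunit, 2 of 3 members of the PeBoW complex and 9 of 11 other assembly factors rose. In PeBoW, which acts on large subunit precursors, Wdr12 rose by 1.46 ± 0.20 and Bop1 by 0.89 ± 0.19, and Pes1 had 0.43 ± 0.37 (adjusted p = 0.445). Gnl3, the nucleolar GTPase nucleostemin, had 114 to 235 CPM in CD8 and 34.6 to 112 CPM in Treg libraries. These ranges did not touch, and Gnl3 rose by 1.37 ± 0.17 (2.59-fold, adjusted p = 1.63e-06, edgeR). Mrto4, which acts in assembly of the ribosomal stalk, rose by 1.41 ± 0.17 and Rrp15 by 1.55 ± 0.26. Nop16 had 116, 187 and 248 CPM as its lowest, median and highest value in CD8 and 41.3, 69.7 and 138 CPM in Treg libraries and rose by 1.37 ± 0.17. CD8 anti-JAML 2 was the 1 CD8 library of Nop16 within the Treg range. Rrs1 and Noc2l did not pass, at 1.21 ± 0.49 and 0.69 ± 0.30. In all, 2 members did not overlap between 12 and 12 libraries, Gnl3 and Mettl1, where 0.781% of all genes did not overlap in this direction.

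Among the abundant nucleolar proteins, Npm1 rose by 1.22 ± 0.16 and Ncl, which encodes the RNA-binding protein nucleolin, by 0.80 ± 0.11. Ddx21, a nucleolar RNA helicase, had 38.1 to 120 CPM in CD8 and 36.6 to 95.0 CPM in Treg libraries and did not pass (0.40 ± 0.16, adjusted p = 0.0642). Mettl1 stood last in the list by role, since it makes 7-methylguanosine in tRNA rather than assembling ribosomes. It had the largest called difference, 2.29 ± 0.20 (4.89-fold, adjusted p = 1.03e-08, edgeR). Its lowest, median and highest values were 27.1, 45.5 and 55.3 CPM in CD8 and 1.87, 8.94 and 23.2 CPM in Treg libraries. Mettl1 overlaps Eef1akmt3 on the other strand, so its counts carry the same uncertainty as those of Nop56.

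The 12 members that did not pass had lower levels and larger errors on the median than the 32 that did. Their mean level over libraries had a median of 21.7 CPM against 79.6 CPM, and their SE a median of 0.42 against 0.19. Of the 8 members with the CACGTG string in the promoter 5 were called, compared with 23 of 30 without it and 4 of 6 without a promoter in the table. Exons of 17 members are overlapped by a gene on the other strand, so their counts are uncertain in the way given for Nop56. They were Nop56, Mettl1, Wdr43, Nhp2, Dkc1, Bop1, Wdr12, Pes1, Gnl3, Rrp1b, Rrp9, Nop14, Wdr3, Wdr36, Heatr1, Tsr1 and Polr1a. Of the 17, 12 were called, compared with 20 of the 26 without such a neighbour. The 7 members that hold snoRNA genes (21 in all) were Nop56, Nop58, Wdr43, Gnl3, Ncl, Tsr1 and Dkc1. Noc2l has no position here because its identifier's version is not in the annotation used.

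The call was kept for 26 members in each of 31 refits with another normalization, tool, filter, block, covariate or set of libraries. The number called was 27 (median 0.89) without the 3 libraries with macrophage transcripts and 30 (median 0.85) without the 3 libraries that stood apart. The summed level of 24 proliferation genes differed between the populations in the same direction, with 4692 to 8485 CPM in CD8 and 1961 to 5924 CPM in Treg libraries. Where 14.2% of all genes rose and 11.9% fell, 19 of these proliferation genes rose and 0 fell. Their part in the result was not tested.

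**Figure D2:**
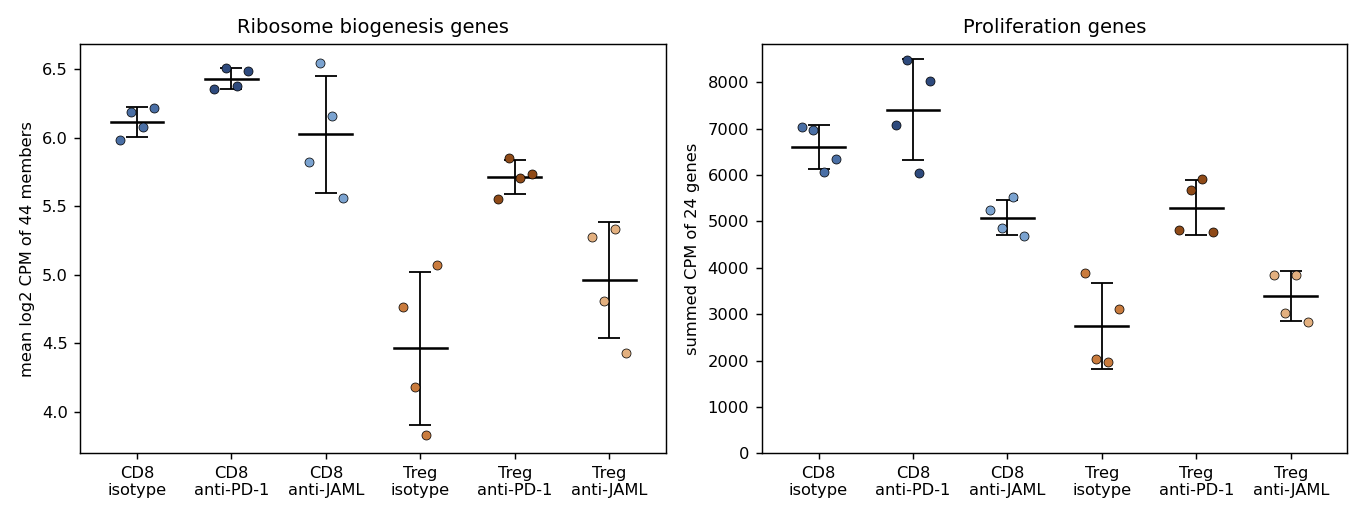
Left, mean log2 CPM of the 44 members in each library; right, summed CPM of 24 proliferation genes (axis from 0); points are libraries, bars the mean and SD of 4. Treg isotype libraries lie lowest in both panels on average, and Treg anti-PD-1 libraries (5.56 to 5.85 on the left) lie above every other Treg library.

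The median gap between the populations was widest under the isotype antibody. The mean log2 CPM of the 44 members, given here as a description, was 5.98 to 6.22 in CD8 isotype and 3.83 to 5.07 in Treg isotype libraries. It was 6.36 to 6.51 in CD8 anti-PD-1 and 5.56 to 5.85 in Treg anti-PD-1 libraries, and 5.56 to 6.55 in CD8 anti-JAML and 4.43 to 5.33 in Treg anti-JAML libraries. All 3 pairs were separate, with an SD of 0.07 to 0.12 in CD8 isotype and both anti-PD-1 groups, 0.43 in both anti-JAML groups and 0.56 in Treg isotype libraries. The median CD8 minus Treg difference in mean log2 CPM over the members was 1.58 under isotype, 0.74 under anti-PD-1 and 1.04 under anti-JAML. Members that did not overlap between populations numbered 30, 23 and 16, where 13.8%, 7.67% and 4.30% of all genes did not overlap in that direction. The mean was lowest in Treg isotype cells for 36 members and in Treg anti-JAML cells for the other 8, and highest in CD8 anti-PD-1 cells for 29.

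Fitted on the 8 isotype libraries alone, 23 members rose in CD8 cells and 0 fell, where 8.21% of 11680 genes were called higher and 7.12% lower. All 44 were above 0, as were 47.6% of all genes, and the median log2 difference was 1.31. Nhp2 had 462, 489, 567 and 466 CPM in the CD8 isotype libraries and 153, 108, 96.8 and 104.5 CPM in the Treg isotype libraries. The groups were far apart, with a difference of 2.03 ± 0.17 (4.08-fold, adjusted p = 0.000175, edgeR). Ncl had 579, 583, 689 and 664 CPM against 284.5, 197, 267 and 282 CPM, a difference of 1.22 ± 0.15 (adjusted p = 0.000983). Mettl1 had the largest difference, 3.36 ± 0.45 (10.2-fold, adjusted p = 0.00172), from 27.1, 37.7, 54.2 and 44.3 CPM against 3.06, 5.47, 4.69 and 1.87 CPM. All 3 genes were higher in each CD8 library than in any Treg library. Fewer genes were detected in Treg isotype libraries (12643 to 14378) than in CD8 isotype libraries (13927 to 14390). With that number as a covariate 11 members were called, and without CD8 isotype 4, 14 were called. Without Treg isotype 3, 23 were called and the median was 1.13.

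**Figure D3:**
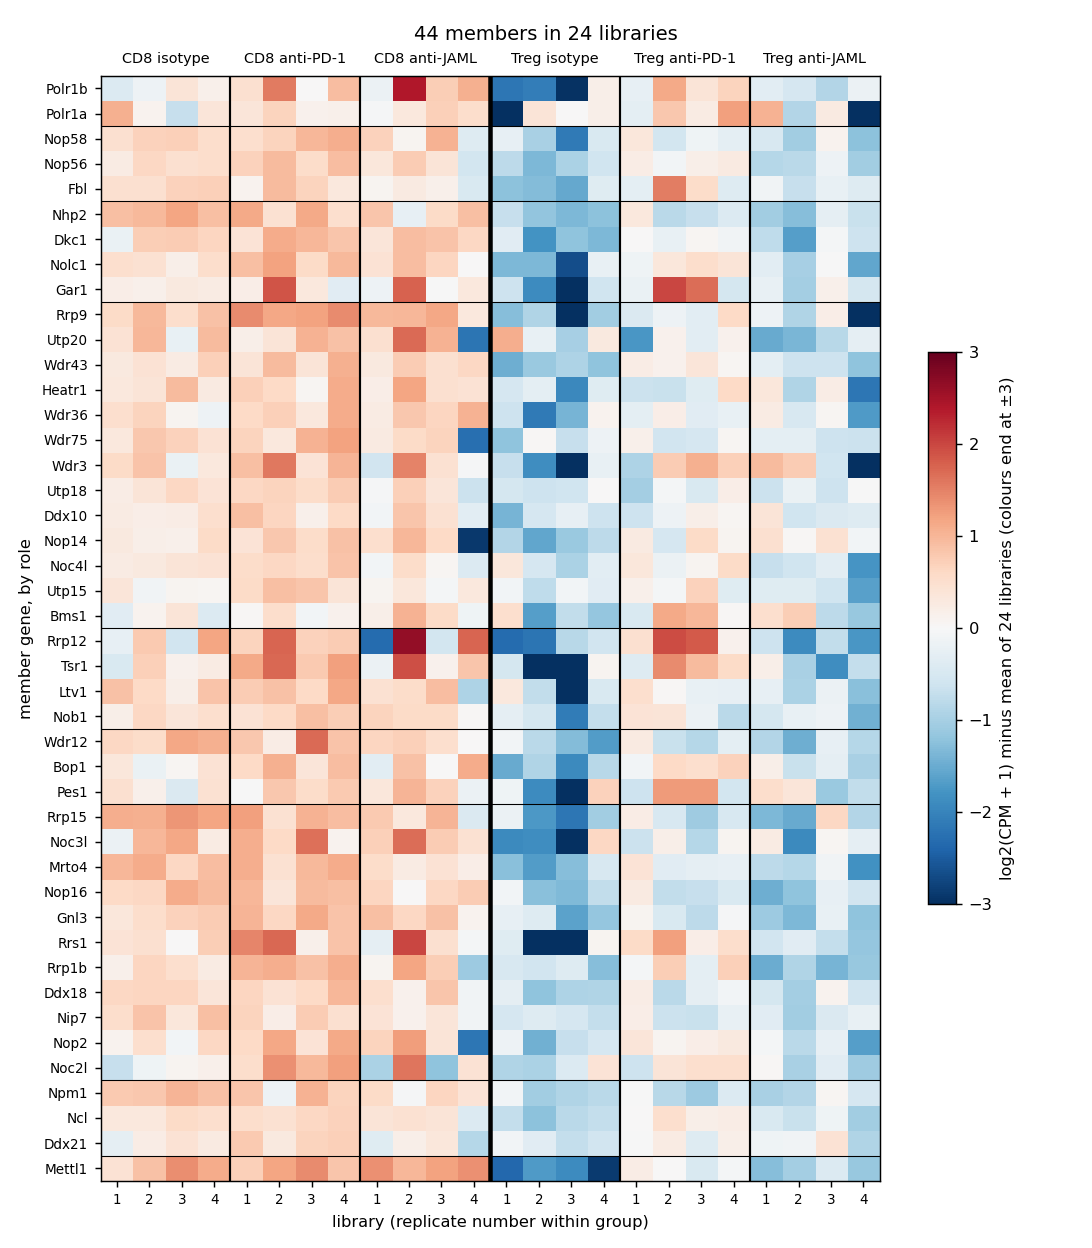
Each row is a member, grouped by role, and each column a library; colour is log2(CPM + 1) minus the member's mean over 24 libraries, from -3 (blue) to 3 (red). CD8 columns are mostly red and Treg isotype columns mostly blue, and single libraries such as CD8 anti-JAML 2 and 4 differ from their group in many rows.

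In Treg cells, transcripts of this machinery had higher means after anti-PD-1 than after the isotype antibody, but no member passed the test. The difference was above 0 for 43 of 44 members and 52.4% of all genes, with a median of 0.82 (1.77-fold) against 0.04. edgeR called 0 members and 3 of 12981 genes (0.0231%), while 16 members and 1835 genes (14.1%) had an unadjusted p under 0.05. DESeq2 called 623 genes (5.01%), 8 members among them, namely Wdr43, Ncl, Bop1, Nop56, Mettl1, Nolc1, Fbl and Nop14. In 15 members every anti-PD-1 library lay above every isotype library, which held for 5.16% of all genes.

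The smallest adjusted p belonged to Wdr43 and Ncl, both 0.0705. Wdr43 had 176.5, 167, 195 and 159.5 CPM in anti-PD-1 libraries and 54.1, 69.7, 80.0 and 65.5 CPM in isotype libraries, a difference of 1.37 ± 0.21 (edgeR). Every anti-PD-1 library was above every isotype library. Ncl had 467, 665, 525 and 545 CPM and 284.5, 197, 267 and 282 CPM, a difference of 1.09 ± 0.21 with no overlap.

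Bop1 had 47.3, 76.8, 71.6 and 81.9 CPM after anti-PD-1 and 17.03, 26.4, 12.7 and 27.8 CPM after isotype, a difference of 1.72 ± 0.35 (adjusted p = 0.0885, edgeR). Nop56 had 305, 243, 295 and 315 CPM and 151, 101, 135 and 170.4 CPM, a difference of 1.05 ± 0.22 (adjusted p = 0.0915). Mettl1 had 23.2, 19.9, 14.2 and 18.9 CPM and 3.06, 5.47, 4.69 and 1.87 CPM, a difference of 2.33 ± 0.54 (adjusted p = 0.09995). None of these 3 overlapped between groups. Wdr43 passed edgeR's threshold without any 1 of 4 libraries, Treg isotype 4, Treg anti-PD-1 1, Treg anti-JAML 1 or Treg anti-JAML 4, and without Treg isotype 4 there were 5 called members.

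**Figure D4:**
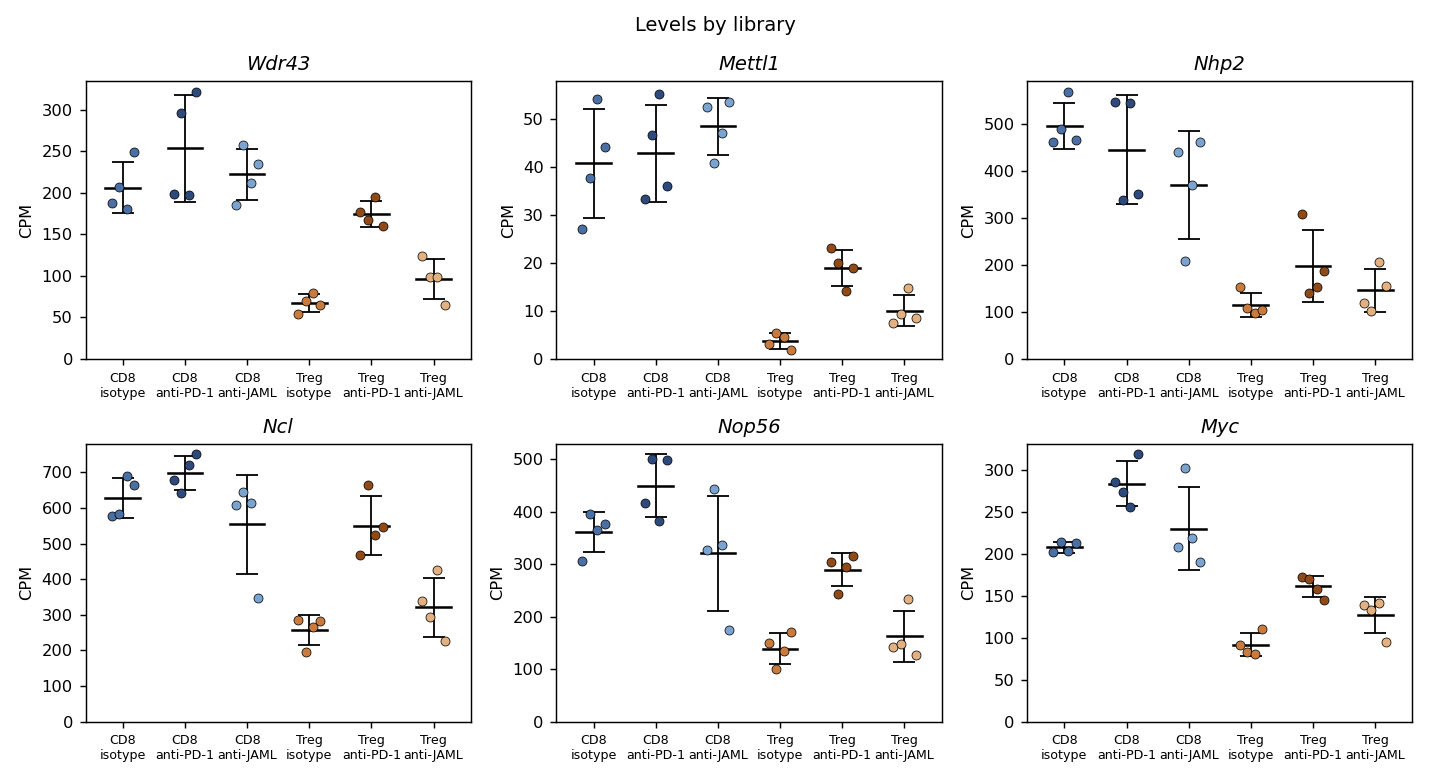
CPM in each library for 5 members and for Myc, by group; bars are the mean and SD of 4 libraries and all axes start at 0. In Wdr43, Mettl1, Ncl and Nop56 every Treg anti-PD-1 library lies above every Treg isotype library, and in Myc the CD8 anti-PD-1 libraries also lie above the CD8 isotype libraries.

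By role, the median differences after anti-PD-1 in Treg cells were 1.37 for RNA polymerase I, 1.05 for box C/D, 1.26 for box H/ACA and 0.54 for the SSU processome. They were 1.42 for 40S maturation and export, 1.13 for PeBoW, 0.70 for 60S assembly and 0.44 for the nucleolar chaperones and helicase. Within a role, members differed widely. Fbl had 18.6, 68.8, 34.2 and 17.6 CPM against 9.30, 8.72, 7.24 and 17.6 CPM, so the groups overlapped at 1 library. Nolc1 had 54.8, 75.5, 86.5 and 78.7 CPM against 22.7, 22.7, 8.61 and 50.7 CPM with no overlap (1.49 ± 0.48, adjusted p = 0.195). Npm1, with 1751, 992, 824 and 1317 CPM against 1650, 845, 944 and 997 CPM, was intermixed (0.14 ± 0.29). Utp20 was the single member below 0, with 1.37, 7.69, 5.37 and 7.66 CPM against 16.1, 5.79, 2.97 and 8.73 CPM (-0.60 ± 0.84, adjusted p = 0.858). The largest fitted differences, 3.42 for Rrp12 and 2.76 for Gar1, came from members with at most 32.8 CPM in any of these libraries and had an SE of 1.45 and 1.17.

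In the same comparison 24 of 24 proliferation genes were above 0, with a median of 1.21, and 0 were called. Their summed level was 4774 to 5924 CPM in anti-PD-1 and 1961 to 3880 CPM in isotype libraries, with no overlap. The share of counts from mitochondrially encoded genes was 1.205 to 3.38% and 2.09 to 4.003%, and 14031 to 15162 and 12643 to 14378 genes were detected. Macrophage markers without Ly6c2 summed to 11.6 to 1191 CPM in anti-PD-1 and 22.2 to 103 CPM in isotype libraries, the high values being those of anti-PD-1 1 and 4. Without these libraries the members' median was 0.82 with 40 above 0, and without Treg isotype 3 it was 0.72 with 43 above 0. With genes detected as a covariate it was 0.50 with 34 above 0. The part of proliferation and of the mitochondrial share in the result was not tested.

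In CD8 cells the median difference after the same antibody was smaller. After anti-PD-1, 39 of 44 members and 53.0% of all genes were above 0, with a median of 0.33 against 0.04. edgeR called 0 members and 0 of 12648 genes (0%), with 5 members and 710 genes (5.61%) at an unadjusted p under 0.05, and DESeq2 called 0 members and 0.175% of all genes. In 7 members every anti-PD-1 library was above every isotype library, compared with 3.49% of all genes. With genes detected as a covariate the median was 0.04 with 23 above 0. Of 24 proliferation genes 18 were above 0 (median 0.28), and of 11 tested mitochondrially encoded genes 10 were below 0 (median -0.53), none of them called. The part of either in the result was not tested.

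The 3 members with the smallest p above 0 were Utp15, Rrp9 and Nolc1. Utp15, an SSU processome subunit, had 84.55, 107, 102 and 74.1 CPM after anti-PD-1 and 72.8, 53.1, 60.5 and 59.4 CPM after isotype (0.61 ± 0.19, adjusted p = 0.856, edgeR). Rrp9 had 126, 104, 108 and 126 CPM and 69.4, 90.85, 66.9 and 85.7 CPM (0.59 ± 0.20). Nolc1 had 112, 139, 89.35 and 119 CPM and 85.0, 81.7, 67.05 and 86.9 CPM (0.54 ± 0.21). The groups of all 3 were separate. The 3 members with the smallest p below 0 were Npm1 (-0.20 ± 0.22), Rrp15 (-0.22 ± 0.26) and Nip7, a 60S factor (-0.12 ± 0.18), whose groups overlapped. After anti-PD-1, Rrp15 had 133, 77.35, 117 and 108 CPM and Nip7 had 183, 132, 195 and 160.2 CPM. Npm1 had 3131, 1582, 3632 and 2774 CPM after anti-PD-1 and 3009, 3090, 3534 and 3248 CPM after isotype, and the low value was that of anti-PD-1 2.

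**Figure D5:**
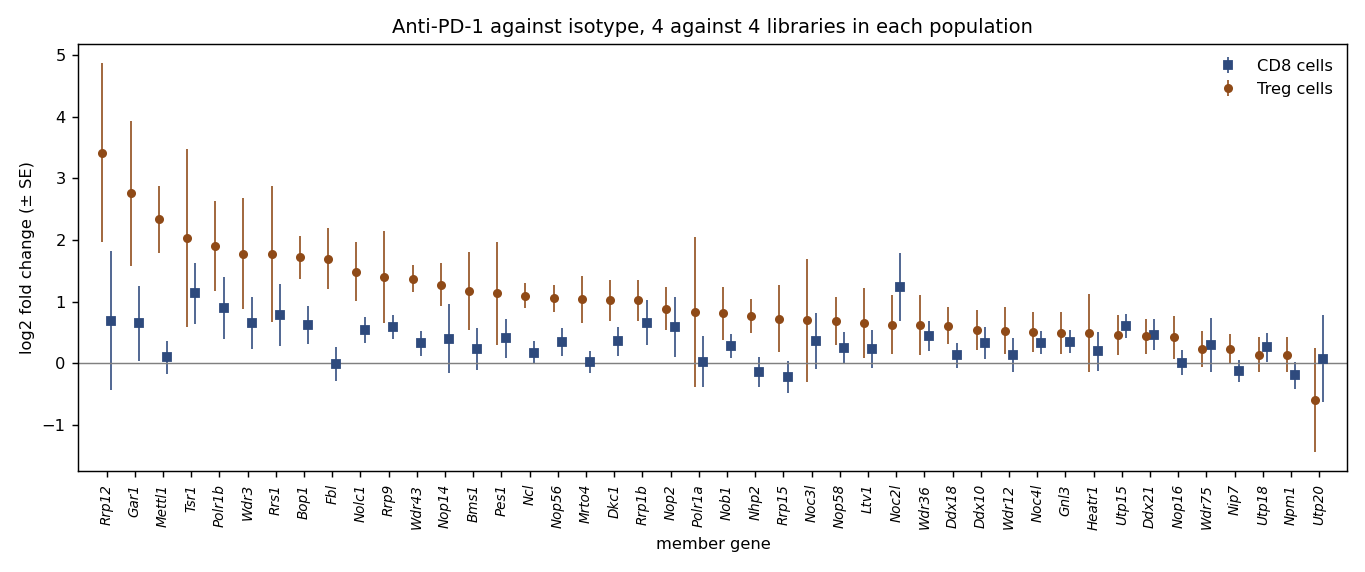
Log2 fold change (points) and SE (bars) of each member, anti-PD-1 against isotype, in Treg cells (circles) and CD8 cells (squares), ordered by the Treg value. Treg points lie above 0 for 43 members and CD8 points for 39, and no member passed an adjusted p of 0.05 in edgeR in either population.

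Whether anti-PD-1 acted differently in the populations was tested as an interaction over 24 libraries. The CD8 effect was below the Treg effect for 38 of 44 members and 53.7% of all genes, with a median of -0.63 against -0.07. edgeR called 0 members and 0 of 14591 genes (0%), with 8 members and 912 genes (6.25%) at an unadjusted p under 0.05. DESeq2 called 201 genes (1.39%), 2 members among them, Mettl1 and Wdr43. Without the libraries that stood apart the members' median was -0.44, and without those with macrophage transcripts -0.55. Mettl1 had the smallest adjusted p in edgeR (0.17), with a difference of effects of -2.26 ± 0.47. Its values in CD8 cells were 33.4, 46.8, 55.3 and 36.1 CPM after anti-PD-1 and 27.1, 37.7, 54.2 and 44.3 CPM after isotype, so its CD8 groups were mixed (0.10 ± 0.26 in the CD8 fit). Wdr43 had -1.08 ± 0.28 (adjusted p = 0.541) and Ncl -0.95 ± 0.28 (adjusted p = 0.57). Above 0 were Noc2l (0.57 ± 0.73), Utp20 (0.65 ± 1.06) and Utp15 (0.12 ± 0.37), the last of which turned below 0 without the libraries with macrophage transcripts. Noc2l, a 60S factor, had 28.2, 51.3, 39.0 and 46.3 CPM after anti-PD-1 and 11.5, 17.7, 20.3 and 21.7 CPM after isotype in CD8 cells. In Treg cells it had 12.2, 25.6, 27.7 and 27.6 CPM and 9.92, 9.52, 14.3 and 26.1 CPM, so it was separate in CD8 cells and mixed in Treg cells.

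After anti-JAML, no member passed edgeR's test in Treg cells. Jaml, the gene of the receptor that anti-JAML binds, had at most 0.776 CPM in Treg isotype and 0.209 CPM in Treg anti-JAML libraries. It had 6.255 to 21.91 CPM in CD8 isotype and 14.94 to 69.36 CPM in CD8 anti-JAML libraries. The part of the Jaml level in the results was not tested. In Treg cells after anti-JAML, 36 of 44 members and 51.3% of all genes were above 0 against isotype, with a median of 0.33 against 0.02. edgeR called 0 members and 0 of 12981 genes (0%), with 4 members and 699 genes (5.38%) at an unadjusted p under 0.05. DESeq2 called 87 genes (0.673%), 1 member among them, Nop14. Without 1 library the median ran from 0.12 (Treg anti-JAML 3) to 0.50 (Treg anti-JAML 4), with 0.22 without Treg isotype 2 and 0.24 without Treg isotype 3. Without the libraries with macrophage transcripts it was 0.33, and with genes detected as a covariate -0.03. Of 24 proliferation genes 20 were above 0 (median 0.41), and of 11 mitochondrially encoded genes 11 were below 0 (median -0.33), none of them called. In 2 members every anti-JAML library was above every isotype library, where 1.67% of all genes were. These were Nop14, an SSU processome factor, with 35.3, 25.7, 34.7 and 23.5 CPM and 13.1, 7.79, 10.98 and 13.96 CPM (1.37 ± 0.35, adjusted p = 0.853, edgeR), and Mettl1. Mettl1 had 7.59, 9.36, 14.8 and 8.53 CPM after anti-JAML (1.41 ± 0.52), values that overlapped those after anti-PD-1 at 1 library.

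Bop1 had 57.3, 31.2, 41.4 and 25.4 CPM after anti-JAML in Treg cells (0.89 ± 0.34 against isotype), with 1 value under the highest isotype value. Rrp1b, a nucleolar protein of 60S assembly, was below 0, with 13.2, 20.5, 14.1 and 17.1 CPM against 27.7, 25.9, 29.3 and 15.6 CPM (-0.60 ± 0.33). Utp20, with 1.78, 2.06, 3.45 and 5.64 CPM after anti-JAML (-1.38 ± 0.86), and Noc4l (-0.47 ± 0.32) were below 0 as well. Noc4l had 83.7, 89.4, 108 and 39.0 CPM after anti-JAML and 172, 94.8, 70.0 and 108 CPM after isotype. All 3 overlapped between groups.

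Against anti-PD-1, which shares the anti-JAML libraries with the comparison above, 42 of 44 members and 51.9% of all genes were below 0 in Treg cells, with a median of -0.65 against -0.03. edgeR called 0 members and 0 of 12981 genes (0%), with 9 members and 742 genes (5.72%) at an unadjusted p under 0.05. DESeq2, which gave an adjusted p to 3921 genes, called 70 of them (1.79%), 3 members among them, Wdr43, Nop56 and Ncl. In 9 members every anti-JAML library was below every anti-PD-1 library, compared with 2.30% of all genes. Without Treg anti-PD-1 1 and 4, the libraries with macrophage transcripts, the median was -0.65 with 37 below 0, and without Treg isotype 3 it was -0.64 with 42 below 0. Beside the members, 10 of 10 tested macrophage markers (median -1.85) and 24 of 24 proliferation genes (median -0.70) were below 0, and 10 of 11 mitochondrially encoded genes were above 0 (median 0.36), none of them called. Summed proliferation genes had 2841 to 3854 CPM after anti-JAML, all below the anti-PD-1 range. Their part in the result was not tested beyond the refit without those libraries. Rrp1b had the smallest p, with 37.2, 65.8, 31.9 and 64.5 CPM after anti-PD-1 (-1.62 ± 0.34, adjusted p = 0.375, edgeR). Wdr43 had 124, 98.3, 99.2 and 65.5 CPM after anti-JAML (-0.85 ± 0.21, adjusted p = 0.555), and Nop56 had 142, 149, 233 and 126 CPM (-0.84 ± 0.22). In these 3 genes the groups were separate. The members above 0 were Nop14 (0.10 ± 0.34) and Npm1 (0.01 ± 0.29), and the sign of both changed in some refits. Npm1 had 899, 947, 1838 and 1240 CPM after anti-JAML, within and around its anti-PD-1 range.

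In CD8 cells members lay on both sides of 0 after anti-JAML. Against isotype, 27 of 44 members and 55.3% of all genes were above 0, with a median of 0.11 against 0.09. edgeR called 0 members and 0 of 12648 genes (0%), with 4 members and 1483 genes (11.7%) at an unadjusted p under 0.05, and DESeq2 called 0 members and 1.70% of all genes. In 5 members, Mrto4, Rrp15, Fbl, Npm1 and Nhp2, every anti-JAML library was below every isotype library, where 6.29% of all genes were. Mrto4 had 101.5, 82.4, 93.1 and 79.75 CPM after anti-JAML and 139.9, 150.3, 107 and 131.5 CPM after isotype (-0.53 ± 0.18, adjusted p = 0.344, edgeR). Rrp15 had 98.1, 70.7, 114.5 and 41.45 CPM and 121, 119.9, 143 and 130.2 CPM (-0.62 ± 0.27). Nip7 had 152, 126.5, 149 and 106 CPM and 167, 209.9, 146 and 217 CPM (-0.43 ± 0.18), with values that overlapped at 1 isotype library.

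On the other side Polr1b had 16.0, 100.1, 30.6 and 38.7 CPM after anti-JAML in CD8 cells and 13.4, 16.1, 23.8 and 20.3 CPM after isotype (1.37 ± 0.51), with library 2 far above the rest. Wdr36 had 80.2, 119.6, 106 and 141 CPM and 96.0, 109, 72.2 and 61.0 CPM (0.45 ± 0.24). Bms1, a GTPase of the SSU processome, had 20.97, 38.96, 27.6 and 16.6 CPM and 14.4, 19.8, 24.5 and 13.5 CPM (0.57 ± 0.35). All 3 overlapped between groups. Library 2 was the highest of its group for 26 of 44 members and library 4 the lowest for 26. Library 4 had 6.89% of its counts from mitochondrially encoded genes, the highest of all 24 libraries. Without library 2 the median turned to -0.15 with 17 members above 0, and without libraries 2 and 4 to -0.05 with 19 above 0. It was 0.20 without library 4, 0.05 without library 3, and 0.05 and 0.04 without CD8 isotype 1 and 3. Of 24 proliferation genes 19 were below 0 (median -0.19), and of 11 mitochondrially encoded genes 9 were above 0 (median 0.17), none of them called.

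Against anti-PD-1, 36 of 44 members and 49.0% of all genes were below 0 in CD8 cells after anti-JAML, with a median of -0.31 against 0.02. edgeR called 0 members and 1 of 12648 genes (0.00791%), with 4 members and 1261 genes (9.97%) at an unadjusted p under 0.05, and DESeq2 called 0 members and 2.17% of all genes. In 2 members, Utp15 and Rrp9, the groups did not overlap, compared with 3.32% of all genes that were lower without overlap. Mrto4 had 149, 95.2, 137.5 and 149.6 CPM after anti-PD-1 (-0.55 ± 0.18, adjusted p = 0.284, edgeR). Noc4l had 128, 197, 140.4 and 101 CPM after anti-JAML and 198, 207, 197 and 246.5 CPM after anti-PD-1 (-0.57 ± 0.19). Ddx21 had 53.9, 78.4, 87.7 and 38.1 CPM and 119.7, 85.7, 111 and 115 CPM (-0.72 ± 0.25). The groups of Mrto4, Noc4l and Ddx21 overlapped at 1 library each. Above 0 with the smallest p were Bms1 (0.34 ± 0.35), Polr1b (0.47 ± 0.50) and Mettl1 (0.19 ± 0.26). After anti-PD-1, Bms1 had 18.7, 26.9, 17.2 and 20.3 CPM and Polr1b had 25.6, 54.9, 18.35 and 35.5 CPM. Mettl1 had 52.6, 40.8, 47.0 and 53.5 CPM after anti-JAML, and all 3 groups overlapped. Without libraries 2 and 4 the median was -0.33, without library 2 -0.43, without library 4 -0.19, and with genes detected as a covariate -0.02. Beside the members, 24 of 24 proliferation genes were below 0 (median -0.56) and 10 of 11 mitochondrially encoded genes above 0 (median 0.71), none of them called. Proliferation genes summed to 4692 to 5537 CPM after anti-JAML and 6049 to 8485 CPM after anti-PD-1, and the mitochondrial share was 2.44 to 6.89% and 1.46 to 3.29%. Their part in the result was not tested.

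The anti-JAML effect was not shown to differ between the populations. In the interaction 33 of 44 members and 51.5% of all genes were below 0, with a median of -0.36, and edgeR called 0 members and 0 of 14591 genes (0%). At an unadjusted p under 0.05 there were 3 members and 1224 genes (8.39%), and DESeq2 called 0 members and 1.95% of all genes. The members with the smallest p were Mettl1 (-1.16 ± 0.47, adjusted p = 0.465, edgeR), Fbl (-1.33 ± 0.54) and Mrto4 (-0.91 ± 0.42). Above 0 they were Utp20 (1.55 ± 1.07), Rrp1b (0.65 ± 0.49) and Utp15 (0.44 ± 0.37). The median was -0.24 without the libraries that stood apart and -0.49 without those with macrophage transcripts. It was -0.18 without Treg isotype 3, -0.18 without Treg anti-JAML 3 and -0.20 without CD8 anti-JAML 4. With genes detected as a covariate it was -0.03 and 21 members were above 0.

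Other genes of the pathway were read from lists that hold no member. Of all genes, 14.2% rose and 11.9% fell in CD8 against Treg cells. Of 88 tested genes of a wider ribosome biogenesis list, 47 rose in CD8 against Treg cells and 1 fell, Nol10, a small subunit factor (-0.61 ± 0.17, adjusted p = 0.0114, edgeR). The genes with the smallest p were Lyar (1.46 ± 0.13), Ebna1bp2 (1.21 ± 0.11) and Pno1 (1.18 ± 0.14). Of 13 tested subunits and cofactors of the RNA exosome, the nuclease complex that trims precursor ends, 12 rose and 0 fell, with Exosc2 at 1.28 ± 0.16. After anti-PD-1 in Treg cells, edgeR called 0 genes of either list, and 69 of 88 and 8 of 13 were above 0. Of all genes 52.4% were above 0, so the exosome count was near that share. The medians of the lists were 0.44 and 0.20, against 0.04 for all genes.

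Myc itself had 202, 214, 203 and 213 CPM in CD8 isotype libraries and 91.6, 83.8, 81.3 and 111 CPM in Treg isotype libraries. It had 286, 274, 257 and 319.7 CPM in CD8 anti-PD-1 and 173, 170.3, 158.5 and 145 CPM in Treg anti-PD-1 libraries. After anti-JAML it had 208.5, 303, 219 and 191 CPM in CD8 and 139.7, 133, 141 and 95.3 CPM in Treg cells. Myc rose in CD8 against Treg cells by 0.95 ± 0.09 (1.93-fold, adjusted p = 7.95e-08, edgeR) and had 0.81 ± 0.18 after anti-PD-1 in Treg cells (adjusted p = 0.094). No Treg library reached the lowest CD8 value. Of all genes, 14.2% rose and 11.9% fell in CD8 against Treg cells. Of the 10 tested genes of the Myc network, 1 rose in CD8 cells, Myc, and 3 fell, Mxd1, Mxd4 and Mxi1, which encode partners of Max that compete with Myc. Mxd1 had -2.95 ± 0.21 and Mxd4 -1.72 ± 0.18. Of 31 other Myc-responsive growth genes, 24 rose and 2 fell, with Impdh2, an enzyme of guanine nucleotide synthesis, at 1.17 ± 0.12.

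The spread between libraries of a group was uneven. The median coefficient of variation of the members was 17.1% in CD8 isotype, 21.2% in CD8 anti-PD-1 and 34.4% in CD8 anti-JAML libraries. It was 43.5% in Treg isotype, 32.8% in Treg anti-PD-1 and 36.7% in Treg anti-JAML libraries. Within Treg isotype, library 3 was the lowest for 20 members and library 2 for 15, while libraries 1 and 4 were the highest for 17 each. The values ran from 9.06% for Nip7 to 143% for Noc3l in that group.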

How the data were processed

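The deposited values were counts, whole numbers for each gene in each of 24 libraries that had not been normalized, and TPM, in which counts are scaled by transcript length and library size, per the file headers. The submitters' processing notes name STAR 2.7.3a, SAMtools, deepTools 3.3.1, fastp 0.20.1 and the mm10 build. The tool for counting, the strand setting and the release of the gene annotation were not given in the sources used here. Totals of 11170918 to 22556460 counts per library set the precision. Reads were amplified and carry no molecular identifiers, so they are not independent molecules.

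Groups and library numbers came from the labels. Members and all lists were chosen with earlier results of these data known. Counts were tested in R 4.3.3 with edgeR 4.0.16 and its quasi-likelihood F test (robust, TMM, filterByExpr at min.count 10 and min.total.count 15), two-sided, with Benjamini-Hochberg adjustment over all genes tested and a threshold of 0.05. The 12 libraries of a population, all 24 libraries (CD8 against Treg over antibodies, interactions) or the 8 isotype libraries entered a fit. The fit was also run on counts simulated for independent libraries, with the outcome not given here. CPM were TMM-scaled over 24 libraries; TPM served only to compare levels between genes. DESeq2 1.42.0, RLE scaling, no filter, a replicate block, a covariate and left-out libraries were alternatives. Named members were the up to 3 with the smallest p in each direction of each comparison and the member with the highest mean TPM of each role. From other lists, the genes with the smallest p among those called were named, and Myc. Jaml was given as the gene of the receptor that anti-JAML binds. Gene positions came from GENCODE M21, which held 54209 of 54957 identifiers (98.64%), and promoters from RefSeq (GRCm38.p6).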

Additional observations from a re-analysis of the deposited data

Results flagged for a closer look

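The 25 named members and the mean log2 CPM of the set were examined in each of the 6 groups of 4 libraries, 156 sets of 4 values in all. A library was singled out where its gap to the nearest of the others, divided by the range of the 4, passed Dixon's critical value at 95%. There were 6 such values in the 156 sets. Chance alone would give about 1 in 20 sets if the sets were independent. The sets share libraries, and most members were named for a small p, so that rate does not decide how 6 compares with chance. Values are log2 CPM. In CD8 anti-PD-1 2, Nop16 was at 7.213, where the other 3 libraries had 7.743 to 7.837. In CD8 anti-JAML 4, Ncl was at 8.445 (others 9.248 to 9.332) and Nop14 at 1.379 (others 5.155 to 5.665). In Treg isotype 3, Rrp9 was at 2.195 (others 4.218 to 4.605). In Treg anti-PD-1 1, Mrto4 was at 6.532 (others 5.76 to 5.855) and Noc2l at 3.621 (others 4.686 to 4.799). CD8 anti-JAML 4 and Treg anti-PD-1 1 each appeared for 2 members.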

How the results depend on the processing

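In the comparison of CD8 with Treg cells over antibodies, 27 to 34 members were called under 7 alternatives and 29 to 35 without 1 library, with at least 43 of 44 above 0. Under isotype, 11 were called with genes detected as a covariate (median 0.96), and 14 to 25 without 1 library, the lowest without CD8 isotype 4. No library with macrophage transcripts is in that fit, so that alternative was not run. DESeq2 called 8 members for anti-PD-1 against isotype in Treg cells, 1 for anti-JAML against isotype, 3 for anti-JAML against anti-PD-1 and 2 for the anti-PD-1 interaction, where edgeR called 0. Without 1 library, 0 to 5 were called for anti-PD-1 against isotype in Treg cells (5 without Treg isotype 4, and 1 without Treg anti-PD-1 1, Treg anti-JAML 1 or Treg anti-JAML 4). With genes detected as a covariate the median for anti-JAML against isotype in Treg cells turned to -0.0293, and that for anti-JAML against isotype in CD8 cells ran from -0.15 to 0.20 without 1 library.

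The sign of single values near 0 changed. Against anti-PD-1, Mettl1 in CD8 anti-JAML cells had -0.0426 with the covariate. Polr1b there had -0.537 without the libraries that stood apart and -0.238 without CD8 anti-JAML 2, which is also the CD8 library with macrophage transcripts, and up to 0.838 without CD8 anti-PD-1 2. In Treg anti-JAML against anti-PD-1, Npm1 had -0.0018 with RLE scaling and with DESeq2 and -0.0508 with the covariate. Without 1 library it ran from -0.229 (Treg anti-JAML 3) to 0.231 (Treg anti-PD-1 1), and was -0.0578 and -0.120 without Treg anti-PD-1 2 and 3. Nop14 ran from -0.0606 (Treg anti-PD-1 2) to 0.305 (Treg anti-PD-1 3). In the anti-PD-1 interaction, Utp15 had -0.0825 without the libraries with macrophage transcripts and ran from -0.0166 (Treg anti-PD-1 4) to 0.413 (Treg anti-PD-1 3) without 1 library. The cause was not tested.

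Library numbers recur across groups. Between antibodies, same-numbered libraries of a population deviated together with correlations from -0.18 to 0.15. CD8 and Treg libraries of the same antibody and number had -0.08 to 0.13, and those of different numbers -0.17 to 0.15. In 5 of these 12 same-numbered pairs the own number was the best match. The labels do not state whether such a pair shares a mouse, and these values do not decide it. The numbers were not taken to pair libraries in the main fits. With the replicate number as a block, 33 members were called in CD8 against Treg cells over antibodies and 17 under isotype, and 0 in the other comparisons. Low counts limit Polr1a, Utp20, Rrp12, Gar1, Tsr1 and Noc3l most, some of which had 0 counts in a library.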
